A study of Mus musculus with 6 samples.

Results

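Apobec3 and Apobec1, the 2 cytidine deaminase genes examined here, were taken by gene name from a deposited table of 28945 genes measured in splenic CD4+ T cells. The control group (CONT) is C57BL/6J mice, with 3 libraries, and the diabetic group (DM) is db/db mice, also with 3, whose leptin receptor gene is mutated and which grow obese and hyperglycaemic. No treatment, age or sex of the animals, and no background strain of the db/db mice, is named in the labels, and they do not say whether each library is a separate animal, so the spread between libraries may be technical. The pair was chosen with the DM against CONT values of the table known. Their own differences between the groups are therefore given as a description, with no test.

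APOBEC enzymes remove the amino group from cytidine and leave uridine, in RNA or in single-stranded DNA. Apobec3 is packaged into retroviral particles and deaminates the first DNA strand made by reverse transcription, and mouse Apobec3 is the Rfv3 gene that governs recovery from Friend retrovirus. Inbred strains differ in its level and splicing, with C57BL/6 among the high expressers. Apobec1 edits messenger RNA, first described for apolipoprotein B in the intestine and later for many 3′ untranslated regions in macrophages. The related Apobec2 is a muscle protein without a settled substrate.

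The annotation (GENCODE M21 on GRCm38) places Apobec3 (ENSMUSG00000009585) on chromosome 15, 79891659 to 79915906, plus strand, with 20 transcripts of which 11 are protein coding, and up to 9 exons. Apobec1 (ENSMUSG00000040613) lies on chromosome 6, 122577792 to 122602444, minus strand, with 9 transcripts, 7 of them coding, and up to 8 exons. Each gene has a single value per library, so isoforms, among them the Apobec3 forms with and without exon 5, could not be separated.

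The 250 bases before a start of each gene are shown because a noncoding transcript that runs across the Apobec3 start also differed between the groups, and because Apobec3 is an interferon-inducible gene. Sequences are from RefSeq on GRCm38.p6, on the strand of the gene, and capitals mark matches to the searched motifs. Apobec3 is chr15:79892158-79892407 on the plus strand and Apobec1 is chr6:122602445-122602694 on the minus strand.
Apobec3: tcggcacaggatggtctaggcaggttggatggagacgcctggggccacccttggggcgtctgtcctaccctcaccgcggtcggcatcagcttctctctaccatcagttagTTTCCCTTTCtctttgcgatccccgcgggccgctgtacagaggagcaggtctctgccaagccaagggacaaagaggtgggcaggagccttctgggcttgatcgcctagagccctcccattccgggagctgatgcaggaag
Apobec1: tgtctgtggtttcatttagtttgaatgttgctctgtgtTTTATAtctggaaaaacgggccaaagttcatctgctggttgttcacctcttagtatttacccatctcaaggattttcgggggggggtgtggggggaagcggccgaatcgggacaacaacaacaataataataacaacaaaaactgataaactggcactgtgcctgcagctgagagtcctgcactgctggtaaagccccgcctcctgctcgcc

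Both strands were searched for the interferon regulatory factor element GAAANNGAAA, the STAT element TTCNNNGAA, the GC box GGGCGG and the TATA box TATAAA. The Apobec3 window held 1 match to GAAANNGAAA, on the opposite strand, at positions -140 to -131 from the start, a motif present in 2.98% of 32851 promoter windows of the same length. The Apobec1 window held 1 TATAAA, on the opposite strand at -212 to -207, a motif present in 12.4% of windows. Neither window held the STAT element (7.02% of windows) or the GC box (32.7%). The G and C content was 61.2% in the Apobec3 window and 48% in the Apobec1 window. RefSeq gives a second start of Apobec3, whose 250 bases, at 79894773 to 79895022, held no GAAANNGAAA and 1 TATAAA, on the opposite strand at -21 to -16. A match is a string of letters and not a shown binding site.

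Expression was given as FPKM, a fragment count divided by transcript length and by depth, and relative depth between libraries ran from 0.801 to 1.12, with absolute depth unknown. CONT replicate 1 stood apart, with a mean correlation to its own group of 0.878 on log2(FPKM + 1) against 0.915 to 0.949 in the others, and with 6.22% of its FPKM in ribosomal protein genes against 12.3% to 16.6%. Cd4, the coreceptor that defines the purified cells, measured 220, 161 and 149 FPKM in the CONT libraries and 82.4, 134 and 93.2 FPKM in the DM libraries. Over 15 CD4 T cell markers the summed FPKM ran from 2401 to 2741 in CONT and from 1395 to 2086 in DM. Of the 15, 0 had an adjusted p below 0.05 in limma, against 1.52% of all genes tested. An unadjusted p below 0.05 was found for 8, against 16% of all. The markers did not move alike: the log2 fold change of DM against CONT was 0.20 for Cd3g, the 1 above 0, and -0.03 for Cd3d. In bulk RNA, fewer cells of a type and less RNA per cell cannot be told apart.

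H2-Ea, an MHC class II gene that C57BL/6 mice do not transcribe, was at 0, 0 and 0.732 FPKM in CONT and 18.2, 38.5 and 269 FPKM in DM. Strain background and diabetes cannot be told apart with these libraries, for Apobec3 and its neighbours as for any other gene.

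Apobec3 was the lower of both members in DM and the higher in CONT. Its level was 24.8, 18.1 and 15.4 FPKM in CONT replicates 1, 2 and 3 and 4.82, 3.86 and 4.40 FPKM in DM replicates 1, 2 and 3. Each CONT library lay above each DM library. The means were 19.4 ± 4.82 and 4.36 ± 0.481 FPKM (SD, n = 3), so the level in DM was 4.45-fold lower. All adjusted p-values are of limma with Benjamini-Hochberg adjustment over 13106 genes, and differences are DM minus CONT on log2(FPKM + 1). For Apobec3 the difference was -1.91 ± 0.22 (SE), with 20 of 13106 genes tested having a more negative one. Groups that do not overlap with DM lower were found for 13.2% of genes tested, and nothing is read from that for a gene chosen on this contrast.

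Rank within a library does not depend on how libraries are scaled to each other. In CONT, 5.66%, 8.83% and 9.60% of the 28945 genes stood above Apobec3. In DM, 25.7%, 27.5% and 27.6% did. The ranges of the groups lay far apart, and each DM library placed the gene lower than any CONT library did. Ranks are drawn from the same values, so nothing is read from this separation for a gene chosen on this contrast.

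Relative to Cd4, Apobec3 was nearly constant among CONT libraries. The quotient of the FPKM values was 0.112, 0.113 and 0.103 for CONT, against 0.0585, 0.0289 and 0.0473 for DM, 2.44-fold lower in DM. Against Cd3e, a CD3 subunit, the quotient was 0.182, 0.243 and 0.208 for CONT, against 0.137, 0.0688 and 0.103 for DM, 2.05-fold lower. With Trac, the receptor alpha constant gene, it was 3.11-fold lower in DM, and with the CD3 chain Cd3g 5.82-fold lower. Among CONT libraries these quotients were not constant: 0.0388, 0.0272 and 0.0189 with Trac, and 0.276, 0.118 and 0.0661 with Cd3g. The groups did not overlap for any of these 4 quotients, whose size depended on the T cell gene set beside Apobec3. Each quotient holds the Apobec3 values known when the gene was chosen, so nothing is read from that separation.

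Apobec1 went the other way. Its level was 4.63, 4.60 and 5.70 FPKM in CONT and 8.19, 7.85 and 17.5 FPKM in DM. All DM libraries lay above all CONT libraries, and DM replicate 3 was well above the other DM libraries. The means were 4.98 ± 0.625 and 11.2 ± 5.47 FPKM (SD, n = 3), 2.24-fold higher in DM. The difference was 0.94 ± 0.31 (SE) on log2(FPKM + 1), and 0.60 ± 0.22 without DM replicate 3. Groups that do not overlap with DM higher were found for 13.8% of genes tested, and 1.27% of genes tested were called higher in DM (0.252% lower), from which nothing is read for a member. In rank, 26.2%, 26.2% and 21.9% of genes stood above Apobec1 in CONT and 18.2%, 17.9% and 9.41% in DM. The authors' deposited fold of DM over CONT is 0.224 for Apobec3 and 2.24 for Apobec1. It is the ratio of the same group means, from the same libraries, and adds no support.

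The order of the members was reversed between the groups. The quotient of Apobec3 over Apobec1, both per length, came to 5.34, 3.94 and 2.70 for CONT, against 0.588, 0.491 and 0.252 for DM. Every CONT library thus held more Apobec3 than Apobec1 and every DM library held less. Both genes were chosen with these values known, so nothing is read from the reversal.

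**Figure D1:**
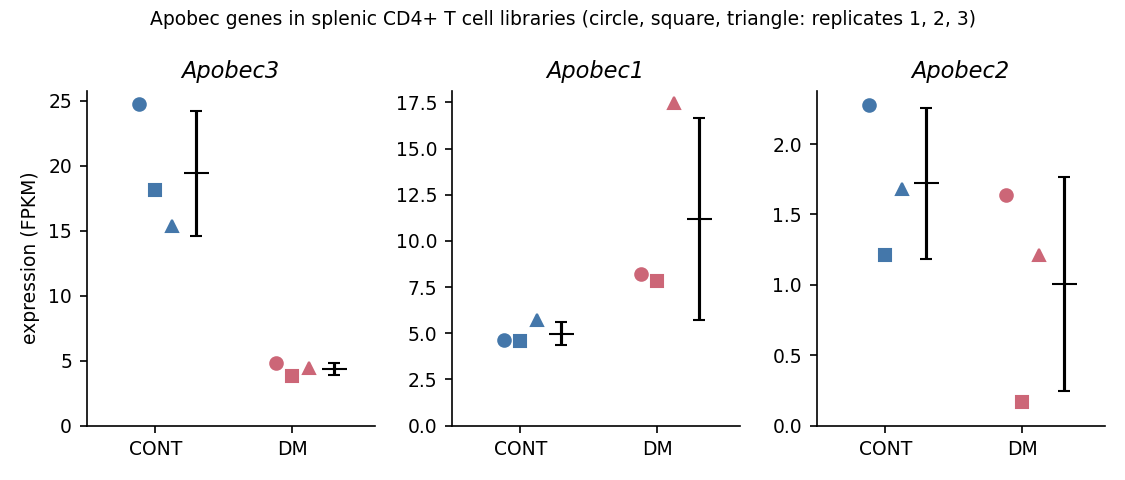
Expression in FPKM (vertical axes, each with its own scale) of Apobec3, Apobec1 and Apobec2 in CONT (blue) and DM (red) libraries, with mean and SD as bars. Apobec3 lies at 15.4 to 24.8 FPKM in CONT and 3.86 to 4.82 in DM, and Apobec1 at 4.60 to 5.70 and 7.85 to 17.5.

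Apobec2 was low, at 2.27, 1.21 and 1.68 FPKM in CONT and 1.64, 0.168 and 1.21 FPKM in DM, with overlapping groups (-0.50 ± 0.34 SE on the log2 scale, adjusted p = 0.422 by limma). Apobec4 was not analysed here.

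DM replicate 3, which had the highest Apobec1, also had the highest B cell markers. The B cell surface gene Ms4a1 was at 29.8 FPKM there and at 0.0759 to 1.46 FPKM in the other libraries. Over 12 B cell markers the summed FPKM was 6.55 to 25.9 in CONT and 14.2 to 380 in DM.

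Summed markers of macrophages, 1 of the cell types in which Apobec1 editing has been described, followed the same order of groups. Of the single markers, Cd14 and C1qa overlapped between the groups. Csf1r, the receptor for macrophage colony-stimulating factor, was at 0.838, 1.82 and 2.78 FPKM in CONT and 6.60, 7.55 and 23.7 FPKM in DM. Lysozyme, Lyz2, was at 14.9, 19.3 and 29.6 FPKM in CONT and 349, 170 and 845 FPKM in DM. The 13 macrophage and monocyte markers summed to 32 to 108 FPKM in CONT and 314 to 1158 FPKM in DM, none of them was at 0 in any DM library, and 13 of 13 had a positive log2 fold change, with 1 called, Lyz2 (adjusted p = 0.0238 by limma), where 1.27% of all genes tested were called higher in DM. An unadjusted p below 0.05 in limma was found for 12 of the 13, against 16% of all.

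Macrophage markers were not alone in this. The 7 basophil and mast cell markers summed to 3.19 to 7.90 FPKM in CONT and 68.9 to 334 FPKM in DM. Of these, 4 of 7 were called higher, among them the basophil protease Mcpt8 (adjusted p = 0.0111 by limma), where 1.27% of all genes tested were. An unadjusted p below 0.05 in limma was found for 6 of 7, against 16% of all. In contrast to Apobec1, the sum of these 7 markers was highest in DM replicate 1 and lowest, among DM libraries, in DM replicate 3. Neutrophil markers summed to 30.9 to 114 FPKM in CONT and 234 to 1335 FPKM in DM, with 9 of 9 having a positive log2 fold change and 0 called in limma, 5 of them at an unadjusted p below 0.05. Plasma cell markers summed to 40 to 128 FPKM in CONT and 268 to 500 FPKM in DM with 1 of 8 called, and dendritic cell markers to 1.70 to 2.30 and 10.1 to 27.5 FPKM with 1 of 5 tested called. An unadjusted p below 0.05 in limma was found for 6 of the 8 and 5 of the 5. The sums of the basophil, neutrophil, plasma cell and dendritic cell lists did not overlap between the groups, whereas those of 8 erythroid markers did, at 116 to 451 FPKM in CONT and 252 to 5193 FPKM in DM. As for Apobec1, the sums of macrophage, B cell, neutrophil, plasma cell, dendritic cell and erythroid markers were all highest in DM replicate 3. So were those of natural killer (31.9 FPKM) and CD8 T cell markers (51.7 FPKM), whose groups overlapped.

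A score of other cells, the mean log2(FPKM + 1) of 64 markers of B, plasma, macrophage, dendritic, neutrophil, basophil and erythroid cells, was 1.58, 1.81 and 1.65 for CONT, against 3.27, 2.75 and 4.53 for DM. With this score as a covariate the Apobec1 difference was -0.20 ± 0.43 (SE) and that of Apobec3 was -1.97 ± 0.49 (SE). The score does not overlap between the groups, so both differences rest there on variation within groups and their standard errors are wide. The Apobec1 difference was smaller than that of Csf1r: the quotient of Apobec1 over Csf1r was 5.53, 2.53 and 2.05 for CONT, against 1.24, 1.04 and 0.739 for DM. Which cells carried the Apobec1 RNA was not tested.

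**Figure D2:**
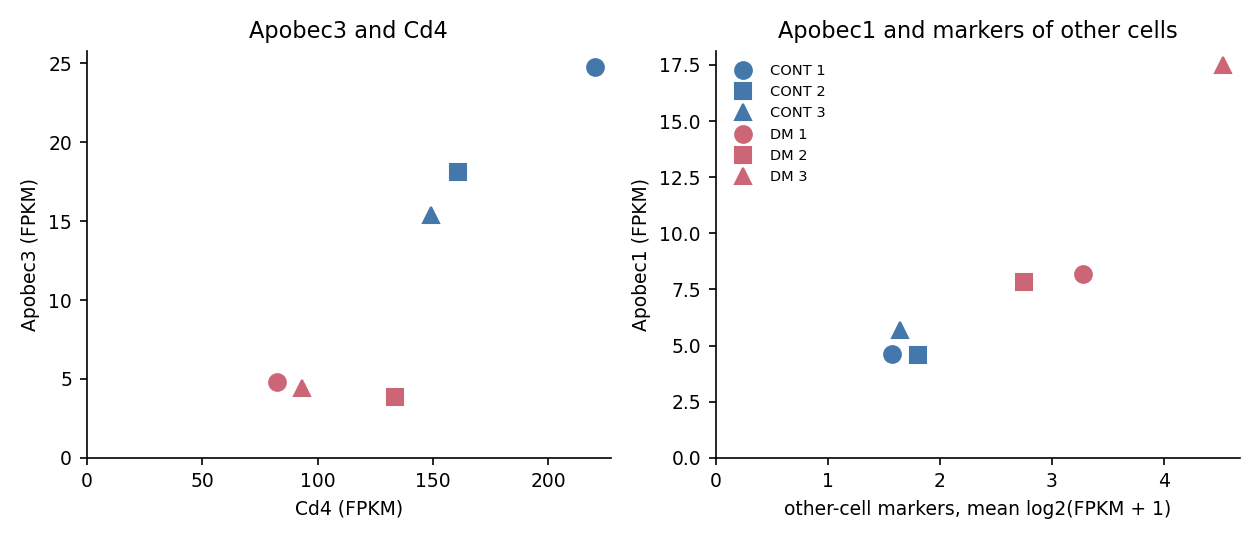
Left, Apobec3 against Cd4, both in FPKM. Right, Apobec1 in FPKM against the mean log2(FPKM + 1) of 64 markers of other cells. Each point is 1 library, blue for CONT and red for DM. DM replicate 2 has a Cd4 level of 134 FPKM, near the 149 FPKM of CONT replicate 3, with 3.86 against 15.4 FPKM of Apobec3. The DM library with the highest marker score, 4.53, has the highest Apobec1, 17.5 FPKM.

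Beside Apobec3, 1 neighbouring gene fell in DM, D730005E14Rik, and Cbx7 and Cbx6 had lower means in DM without passing the test. D730005E14Rik, a noncoding gene listed under the name AC113595 in the table, is a single exon at 79889532 to 79893120 on the plus strand, and so covers the Apobec3 window printed above and the starts of many Apobec3 transcripts. It was at 4.74, 2.47 and 2.18 FPKM in CONT, against 0.0955, 0.0433 and 0.00152 FPKM in DM. All DM libraries were near 0 and no CONT library was. It fell by 1.93 ± 0.28 (SE) on the log2(FPKM + 1) scale (adjusted p = 0.0243 by limma), a difference that the added 1 compresses, the means being 3.13 ± 1.40 and 0.0468 ± 0.0471 FPKM (SD, n = 3), a ratio of 66.9. Because it overlaps Apobec3 on the same strand in the annotation, how reads of the shared stretch were assigned can affect both values. The call was lost without DM replicate 1, 2 or 3 (limma adjusted p = 0.101, 0.0652 and 0.0894), each with a log2 fold change between -1.96 and -1.90, and with no filter on low values (0.086).

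Cbx7, a chromobox subunit of Polycomb repressive complexes, is transcribed toward Apobec3 from the other side, and its end overlaps that of the farthest-reaching Apobec3 transcript on the opposite strand. Its level was 43.5, 21.9 and 16.2 FPKM in CONT and 5.24, 7.27 and 6.38 FPKM in DM, a ratio of means of 4.32. The groups did not overlap, but Cbx7 missed the threshold (-1.84 ± 0.35 SE on the log2 scale, adjusted p = 0.06 by limma). Without CONT replicate 1, the library that stood apart and held the highest Cbx7 value, the log2 fold change was -1.45 and passed (adjusted p = 0.0264 by limma). With any other library left out Cbx7 did not pass (limma adjusted p from 0.0578 to 0.221), nor did it in any other alternative run.

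Cbx6, a paralogue of Cbx7 and the nearest tested gene upstream after D730005E14Rik, was at 8.62, 4.71 and 3.41 FPKM in CONT and 2.64, 2.09 and 2.05 FPKM in DM (-0.94 ± 0.30 SE on the log2 scale, adjusted p = 0.225 by limma). Farther upstream Sun2, a nuclear envelope linker protein, had means of 63.3 ± 17.1 and 35.1 ± 6.77 FPKM (SD, n = 3), and the GTPase Gtpbp1 had 31 ± 8.89 and 17.7 ± 1.48 FPKM (limma adjusted p = 0.236 for each). Neither passed. Dnal4, a dynein light chain between Sun2 and Cbx6, had the opposite sign, at 1.06 ± 0.219 and 1.80 ± 0.243 FPKM (adjusted p = 0.315 by limma).

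Over the 18 genes tested whose start lay within 500 kb of that of Apobec3, 1 was called, D730005E14Rik, and 5 had an unadjusted p below 0.05, where 1.52% of all genes tested were called and 16% had such a p. Groups did not overlap for 6 of the 18, against 27.1% of all genes tested, and the 6 all lay between -201 and 79.5 kb. The median log2 fold change of the 18 was -0.28, against -0.01 over all genes. The ends of that stretch are set by the outermost of these 6 genes, so tested genes beyond it overlap between the groups by construction. Among those beyond it were the ribosomal protein gene Rpl3 and the stress transcription factor gene Atf4. Of the 6, Dnal4 was higher in DM. The largest differences among the 18 were at D730005E14Rik and Cbx7.

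Around Apobec1 the adjacent tested gene was low. Gdf3, a growth factor of the early embryo, was at 0.202, 1.84 and 0.833 FPKM in CONT and 2.14, 0.767 and 0.822 FPKM in DM (adjusted p = 0.723 by limma). Of 16 genes tested within 500 kb, 1 rose, the lectin-like receptor Klrg1 of effector lymphocytes, at some distance (3.08 ± 0.463 and 10.6 ± 1.86 FPKM, SD, n = 3, log2 fold change 1.51 ± 0.20 SE, adjusted p = 0.0171 by limma). It lost the call without any 1 of the DM libraries or CONT replicate 2 (limma adjusted p from 0.0525 to 0.0778), under total scaling (0.0769) and with no filter on low values (0.0791). The myeloid lectin gene Clec4a1 was at 0.328, 0.954 and 1.09 FPKM in CONT and 3.51, 2.93 and 17.1 FPKM in DM, with Clec4a3 alike (limma adjusted p = 0.181 and 0.25), both highest in DM replicate 3. The 1 call among 16 stands beside 1.52% called over all genes tested, and 6 of the 16 had an unadjusted p below 0.05 in limma, against 16% of all. Groups did not overlap for 8 of the 16, in both directions, against 27.1% of all, and the median log2 fold change was 0.14.

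**Figure D3:**
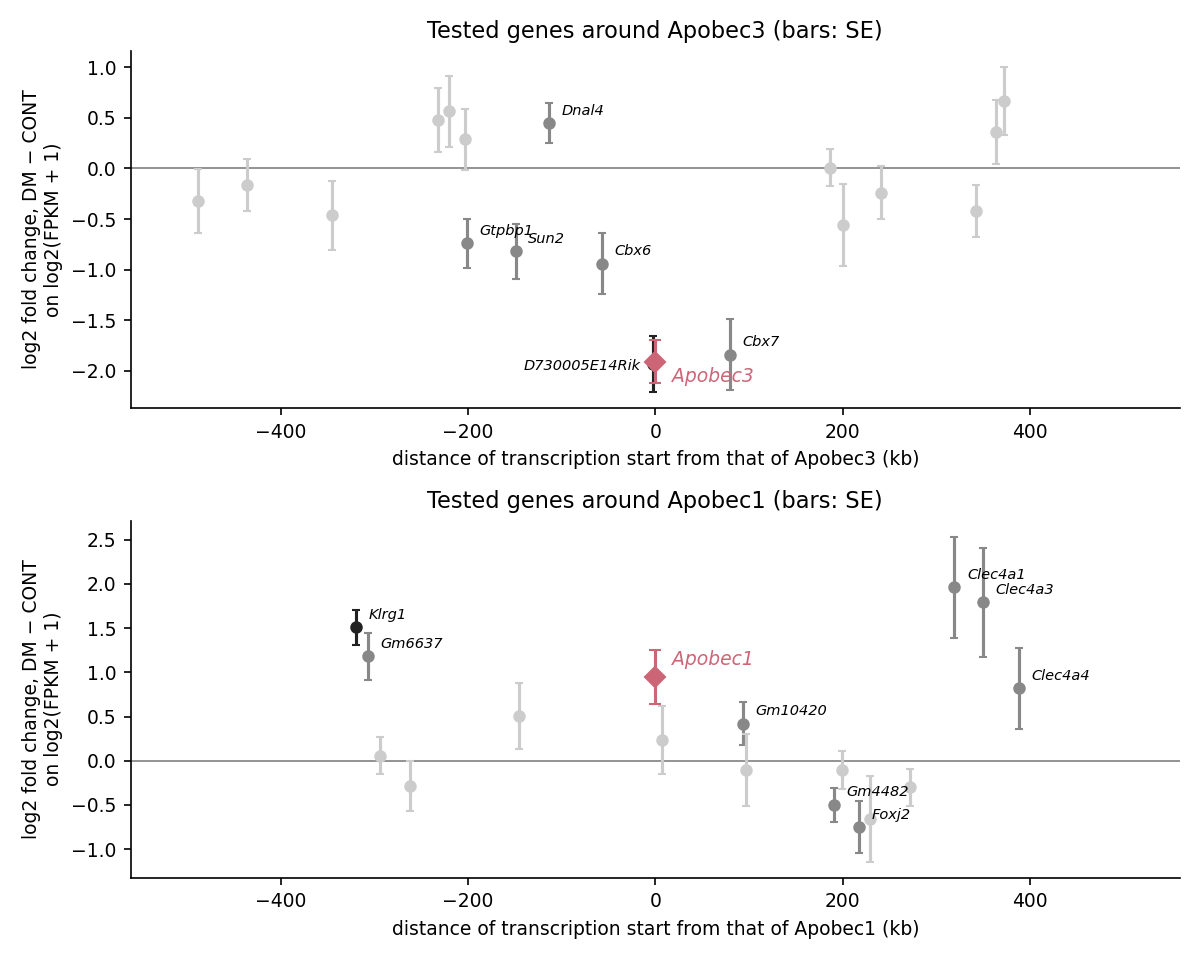
Log2 fold change of DM against CONT on log2(FPKM + 1), with SE bars, for tested genes by the distance of their start from that of Apobec3 (top) or Apobec1 (bottom), in kb along the chromosome. Black marks genes with an adjusted p below 0.05, dark grey other genes whose groups do not overlap, light grey the rest, and the red diamond the member itself, which was not tested. Around Apobec3 (-1.91), D730005E14Rik (-1.93) and Cbx7 (-1.84) have the lowest values.

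Genes that work with these enzymes, or on the same viruses, were called at a share near that of all genes. Over 9 lists, 85 genes other than the members were tested, of which 1 rose (Ifitm3) and none fell, or 1.18% against 1.52% of all genes tested, and 10, or 11.8%, had an unadjusted p below 0.05 in limma, against 16% of all genes tested. Median log2 fold changes of the lists lay between -0.50 and 0.25, against -0.01 over all genes.

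Apobec1 needs RNA-binding partners to find its sites. Of 8 genes for editing cofactors and other Apobec1-binding proteins, 6 were tested, none was called and none had an unadjusted p below 0.05 (limma). The complementation factor A1cf, the classical partner in the gut, was at 0 to 0.0214 FPKM over the 6 libraries, and Rbm47, the partner that can replace it, was at 0.0779 to 0.127 FPKM in CONT and 0.290 to 0.817 FPKM in DM, below the level tested. The binding protein Syncrip was at 21.6 to 28.6 FPKM in CONT and 19.9 to 28.2 FPKM in DM. Hnrnpab, another Apobec1-binding protein, was at 97.9 ± 17.8 and 162 ± 55.7 FPKM (SD, n = 3, adjusted p = 0.331 by limma).

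Deaminases of adenosine gave no call among 3 tested, and none had an unadjusted p below 0.05 (limma). Adar, which edits adenosine in double-stranded RNA, was at 29.9, 16.1 and 12 FPKM in CONT and 10.3, 11.7 and 11.7 FPKM in DM (-0.64 ± 0.32 SE on the log2 scale, adjusted p = 0.338 by limma). Each DM value lay just below the lowest CONT value, and CONT replicate 1 was the highest. Among deaminases of free bases and nucleosides, guanine deaminase Gda was at 0.525, 1.20 and 0.612 FPKM in CONT and 4.39, 2.13 and 12.4 FPKM in DM (1.80 ± 0.50 SE on the log2 scale, adjusted p = 0.164 by limma). It was highest in DM replicate 3, as Apobec1 was. It was the 1 of 4 tested with an unadjusted p below 0.05 (limma), against 16% of all genes tested.

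Uracil that deaminases leave in DNA is removed by glycosylases and repaired. None of 18 such genes passed or had an unadjusted p below 0.05 (limma), and their median log2 fold change was 0.02. The glycosylase Ung was at 1.10, 1.50 and 1.23 FPKM in CONT and 2.24, 1.71 and 1.55 FPKM in DM. Dut, which keeps uracil nucleotide out of the precursor pool, had the smallest p of the list, with 10.8 ± 4.98 and 23.5 ± 14.9 FPKM (SD, n = 3, adjusted p = 0.337 by limma).

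Of 20 genes of retroviral restriction and retroelement silencing, 1 rose and 19 did not pass, where 1.27% of all genes tested were called higher. Their median log2 fold change was -0.02, with 10 above 0. Ifitm3, a membrane protein that blocks viral entry, was at 3.38, 6.97 and 7.83 FPKM in CONT and 67.2, 24.3 and 76.4 FPKM in DM (2.92 ± 0.47 SE on the log2 scale, adjusted p = 0.0371 by limma). It is also abundant in myeloid cells, whose markers were higher in the same libraries, and their part in this result was not tested. Its call was lost without any 1 library other than DM replicate 2 (limma adjusted p from 0.0582 to 0.151) under median-of-ratios scaling (0.053) and with no filter on low values (0.137). The related Ifitm2 was at 13.9 ± 7.18 and 48.6 ± 19.5 FPKM (SD, n = 3, adjusted p = 0.15 by limma).

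Mov10, an RNA helicase that restricts retroelements, was at 16.8, 8.08 and 6.28 FPKM in CONT and 4.80, 4.28 and 4.61 FPKM in DM (-0.93 ± 0.33 SE on the log2 scale, adjusted p = 0.262 by limma). Samhd1, which lowers the nucleotide supply for reverse transcription, was at 89, 44.4 and 39.8 FPKM in CONT and 33.9, 42.6 and 51.4 FPKM in DM, with overlapping groups. Among the receptors that gammaretroviruses use for entry, 0 of 4 passed in limma, against 1.52% of all genes tested. An unadjusted p below 0.05 was found for 1, the phosphate transporter Slc20a1, against 16% of all. Slc20a1 was at 41.9, 33.6 and 25.1 FPKM in CONT and 16.8, 18.2 and 19.5 FPKM in DM (adjusted p = 0.171 by limma).

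Apobec3 is induced by type I interferon, and the first of its 2 promoter windows held the motif that interferon regulatory factors bind. Of 24 interferon-response genes 0 passed in limma, against 1.52% of all genes tested, and 5 had an unadjusted p below 0.05, against 16% of all. Their median log2 fold change was -0.31, against -0.01 over all genes, and 6 were above 0. They did not move one way: Oas2, an antiviral oligoadenylate synthetase, was at 9 ± 5.28 and 2.88 ± 0.705 FPKM (-1.26 ± 0.36 SE on the log2 scale, adjusted p = 0.171 by limma), and Xaf1, a cell death gene, at 5.80 ± 2.94 and 16.6 ± 0.685 FPKM (SD, n = 3, 1.45 ± 0.29 SE, adjusted p = 0.07 by limma). Without CONT replicate 1, the library that stood apart, Xaf1 passed (1.78 ± 0.15 SE on the log2 scale, adjusted p = 0.00528 by limma), the 1 gene of this list that did. Ifit1 was at 10 ± 1.99 and 6.13 ± 1.51 FPKM (SD, n = 3, adjusted p = 0.279 by limma). Of 5 NF-kB subunits none passed or had an unadjusted p below 0.05 (limma), with a median of -0.23.

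**Figure D4:**
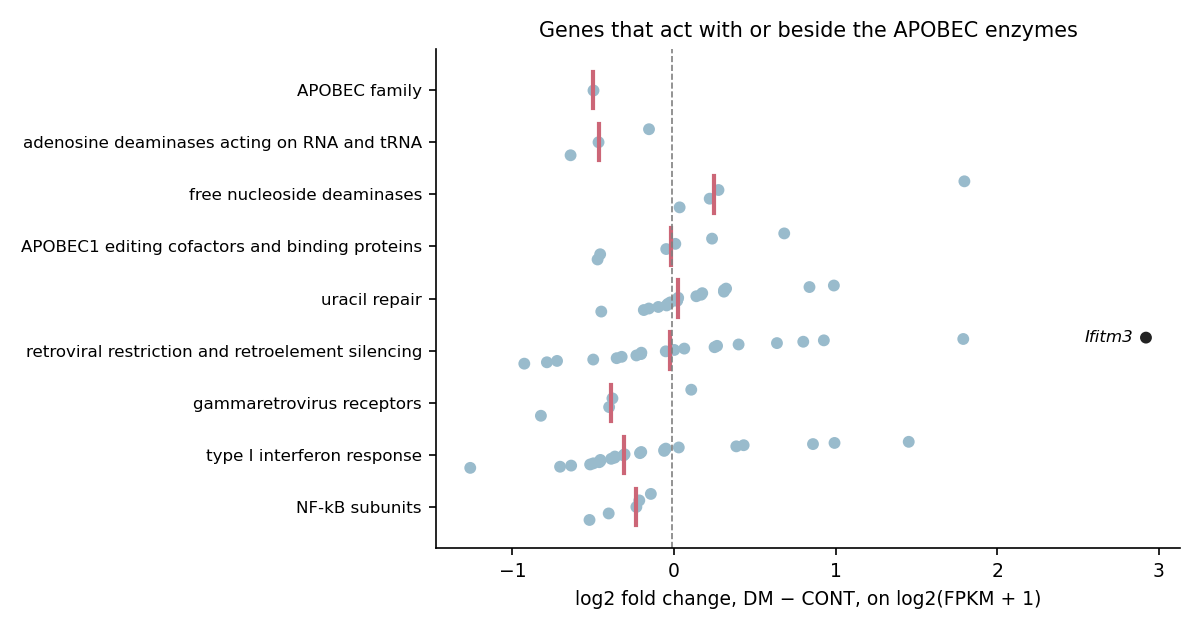
Log2 fold change of DM against CONT on log2(FPKM + 1) for the 85 tested genes of 9 lists, members left out. Each point is a gene, black where called, the red line is the list's median and the dashed line the median of all genes (-0.01). Ifitm3, at 2.92, is the 1 called gene.

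Genes with the same profile over the 6 libraries were sought by Pearson's r on log2(FPKM + 1) among 10142 genes. For Apobec3 the closest were Cenpj, a centriole assembly gene (r = 0.999), Inka2 (0.998), Nat8f4 (0.994), the NAD synthetase Nadsyn1 (0.989) and Eya2 (0.988), a phosphatase and transcriptional coactivator. Cenpj was at 6.23, 5.49 and 5.32 FPKM in CONT and 3.41, 3.04 and 3.28 FPKM in DM, the same order of libraries as Apobec3 with a smaller difference. Eya2 was at 6.46 ± 0.241 and 2.97 ± 0.0331 FPKM (SD, n = 3). None of the 5 lies on chromosome 15. In all, 74 genes had an r above 0.95.

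For Apobec1 the closest were the lipase Pla2g7 (r = 0.998), the phospholipid enzyme Lpcat2 (0.996), cyclin D1, Ccnd1 (0.996), the actin-binding Marcks (0.995) and the myeloid receptor Trem1 (0.995). Pla2g7 was at 0.437, 0.306 and 1.21 FPKM in CONT and 2.82, 2.75 and 21.1 FPKM in DM, so the profile shared with Apobec1 was chiefly that of DM replicate 3 above the other DM libraries and these above CONT. In all, 190 genes had an r above 0.95 with Apobec1. These values describe 6 libraries in 2 separate groups, carry no test, and are set largely by the group difference.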

How the data were processed

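CD4+ T cell RNA of 3 CONT and 3 DM libraries was sequenced. The submitters' processing notes name cutadapt 1.9, FastQC and GRCm38. What aligned and quantified the reads, and any use of strand, were not given in the sources used here. Values the authors deposited, in 1 table of the whole series, are treated as FPKM. The table is named a count table, but values are not whole, and times transcript length, 16.9% to 18.9% of low values of 15403 single-transcript genes fell within 0.02 of a whole step, against a median of 3.54% to 3.61% over step sizes tried. The table also holds the authors' p-values and q-values, not used here, and their fold ratio and its log2, of which the ratio is quoted.

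Genes with a mean of at least 1 FPKM in a group (13106) were tested with limma 3.58.1 in R 4.3.3 on log2(FPKM + 1), with trended and robust variance, no covariate and Benjamini-Hochberg adjustment over all of them, called at 0.05. The fit was tested on simulated data. Members, lists and tests were chosen with earlier results of these data known. Named genes were the family, each list's called genes and up to 3 more by p, neighbours within 500 kb that were called or adjacent, and the 5 closest profiles per member, with other neighbours whose groups did not overlap and genes of known role added after their values were seen. GENCODE M21 held 28864 of the 28945 genes. Figures used matplotlib 3.10.9.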

Additional observations from a re-analysis of the deposited data

How the results depend on the processing

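Apobec3 stayed lower in DM under every alternative run: its log2 fold change was between -2.05 and -1.73 with each library left out in turn and -2.39 with total scaling, where the median of all genes was -0.33 and its difference from that median -2.05. Apobec1 stayed higher, between 0.60 and 1.13 with a library left out, except with the other-cell marker score as a covariate, where it was -0.20. Over all genes 199 were called, 24 to 192 with a library left out, 28 with no filter on low values, where more genes are adjusted for, and 0 with the marker score as a covariate, where 317 had an unadjusted p below 0.05 in limma. The single call in the lists, Ifitm3, became 0 with median-of-ratios scaling, with no filter and with the covariate. With a library left out the lists gave 0 to 1 calls, Ifitm3 without DM replicate 2 and the interferon-response gene Xaf1, in place of Ifitm3, without CONT replicate 1. The 2 calls among neighbours became 1 with total scaling and with a filter at 5 FPKM, which removes D730005E14Rik, 0 with no filter and with the covariate, and 0 to 3 with a library left out. The causes of these changes were not tested beyond what the construction shows. CONT and DM share replicate numbers, but same-numbered libraries deviated apart (correlations of -0.36, -0.38 and -0.20) and none correlated best with its own number. With the replicate block 204 genes were called. The log2 fold changes of Apobec3 and Apobec1 were again -1.91 and 0.94, which the block cannot move because both groups hold every replicate number. The filter and variance settings cannot move them either, so nothing is read from their staying the same there. Read totals are unknown, so the counting error of low values such as those of D730005E14Rik in DM could not be given.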
